A study of Mus musculus with 8 samples.

Results

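The 4 libraries of leukaemic spleens that carried the Eµ-TCL1A transgene alone were described on their own, as 4 of the 8 samples of the series. They were chosen by their label (replicates 1 to 4 of this genotype), all genes were used, and the 4 libraries with an inducible Kdm1a knockdown entered no value. The mice were C57BL/6 and leukaemic, and polyadenylated RNA came from mononuclear cells of the spleen. The labels do not say whether these mice received doxycycline, the drug that induces the construct of the other group, and do not tie a library to 1 animal. The labels therefore do not say how far the spread between libraries is biological or technical. Xist, Y-linked genes and the leading variable segments differed between libraries, as described below. By Xist and Y-linked genes, replicate 1 had a female pattern and replicates 2 to 4 a male pattern. The 4 libraries thus did not all come from 1 animal. Sex and any other trait of replicate 1 cannot be told apart in its differences from the others.

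Eµ-TCL1 mice express human TCL1A, a coactivator of the AKT kinase, in B cells under the immunoglobulin heavy chain enhancer, and are used as a model of chronic lymphocytic leukaemia. The leukaemia is typically an expansion of CD5+ B cells that carry IgM, and cells of 1 clone share 1 rearranged heavy chain and 1 rearranged light chain. The heavy chain variable (Ighv) segments and the kappa and lambda light chain variable segments (Igkv, Iglv) that lead a library therefore name its most abundant rearrangements. Survival of such cells is known to rest on B cell receptor signals and on the BCL2 family, in which guardians such as Mcl1 and Bcl2 hold back the pore-forming effectors Bax and Bak1.

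Each library had a different set of leading variable segments. The ends of the germline segments that led a heavy chain, kappa or lambda set are given below, with Ighv11-2, which was among the first 4 in every library, because they show which segments the values refer to, in the sense of the transcript, 5′ to 3′, from the GENCODE M21 transcripts of GRCm38. Capitals start at the codon of the last conserved cysteine, where the junction begins, and run to the end of the germline exon. These are reference sequences and not those of the leukaemic clones.
Ighv1-55: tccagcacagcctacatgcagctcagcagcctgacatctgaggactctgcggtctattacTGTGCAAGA
Ighv5-16: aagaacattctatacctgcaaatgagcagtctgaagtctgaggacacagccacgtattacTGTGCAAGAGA
Ighv2-5: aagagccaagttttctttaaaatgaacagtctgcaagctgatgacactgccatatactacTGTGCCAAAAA
Ighv11-2: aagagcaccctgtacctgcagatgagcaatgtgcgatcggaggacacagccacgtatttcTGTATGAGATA
Igkv12-89: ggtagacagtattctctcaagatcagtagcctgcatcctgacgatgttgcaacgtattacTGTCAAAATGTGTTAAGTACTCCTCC
Igkv4-57: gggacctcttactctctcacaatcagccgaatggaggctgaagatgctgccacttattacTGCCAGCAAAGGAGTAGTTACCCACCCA
Igkv8-28: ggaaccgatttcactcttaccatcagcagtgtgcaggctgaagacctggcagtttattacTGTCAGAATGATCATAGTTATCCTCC
Igkv14-126: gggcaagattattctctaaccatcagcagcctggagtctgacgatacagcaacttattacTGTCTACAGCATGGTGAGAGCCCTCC
Iglv1: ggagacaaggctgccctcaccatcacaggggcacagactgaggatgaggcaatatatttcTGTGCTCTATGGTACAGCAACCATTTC
Iglv2: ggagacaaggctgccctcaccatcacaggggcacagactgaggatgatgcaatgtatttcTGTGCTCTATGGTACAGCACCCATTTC

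The 4 heavy chain segments lie on the minus strand of chromosome 12, Ighv1-55 at chr12:115208095-115208591, Ighv5-16 at chr12:113838526-113839010, Ighv2-5 at chr12:113685482-113686045 and Ighv11-2 at chr12:114048241-114048812. The kappa segments lie on chromosome 6, Igkv12-89 at chr6:68834846-68835307, Igkv4-57 at chr6:69575975-69576500 and Igkv8-28 at chr6:70143593-70144166 on the minus strand and Igkv14-126 at chr6:67896172-67896642 on the plus strand. The lambda segments lie on the minus strand of chromosome 16, Iglv1 at chr16:19085017-19085500 and Iglv2 at chr16:19260401-19260859. Over the last 280 bases of their transcripts the heavy chain segments shared 57.4% to 68.6% of aligned bases with each other. Iglv1 and Iglv2 were near-identical copies with 97.5% identity, so fragments may have been split between them. In replicates 2 and 4, where Iglv2 held 98.3% and 99.4% of Iglv FPKM, Iglv1 held 1.03% and 0.389%. Such a split was not tested.

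The unit was FPKM, which divides the fragments of a gene by its transcript length and by the size of the library, and 54018 identifiers were listed. FPKM summed to between 572660 (replicate 4) and 762888 (replicate 3) per library, and 12567 to 12799 identifiers reached 1 FPKM. The steps between low values put 1 fragment on a transcript of 1 kilobase at 0.0214 to 0.0252 FPKM, which corresponds to about 39700000 to 46600000 fragments per library. That estimate depends on the effective transcript length assumed. A value of 1 FPKM on such a transcript is thus far above the level of 1 fragment. An exact 0 in an abundant gene may be a failed estimate. In all, 28 identifiers had an exact 0 in a library and a median of at least 10 FPKM. Of these, 23 had transcripts under 300 bases. The longer ones include a Y-linked gene at 0 in replicate 1, where other Y-linked genes were also near 0, as given below. Replicate 4 stood apart from the other libraries, as described in the last paragraphs.

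In the heavy chain, 1 segment held 52.1%, 59.4%, 89.2% and 82.3% of the summed FPKM of 185 Ighv segments in replicates 1 to 4. Ighv1-55 led replicates 1 and 3, with 4815 and 6788 FPKM, and was at 9.44 and 3.04 FPKM in replicates 2 and 4. Ighv5-16 led replicate 4 with 11766 FPKM and was the second segment of replicate 1, with 2127 FPKM or 23.0%. Replicate 2 was led by Ighv2-5 with 4268 FPKM, followed by Ighv1-54 with 24.4%. Replicates 1 and 2 thus had more than 1 abundant heavy chain segment, while replicates 3 and 4 were dominated by 1.

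The effective number of Ighv segments (the inverse of the summed squared shares, which is 1 when a single segment is present) was 3.01, 2.36, 1.25 and 1.45 in replicates 1 to 4. Ighv11-2, a segment known from B-1 cells that bind phosphatidylcholine, ranked 3 or 4 in every library. It held 6.05%, 10.5%, 1.46% and 1.62% of the Ighv total in replicates 1 to 4, which is 559, 753, 111 and 232 FPKM. Ighv12-3, another segment known from such B-1 cells, held 0.333% to 0.471%.

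**Figure D1:**
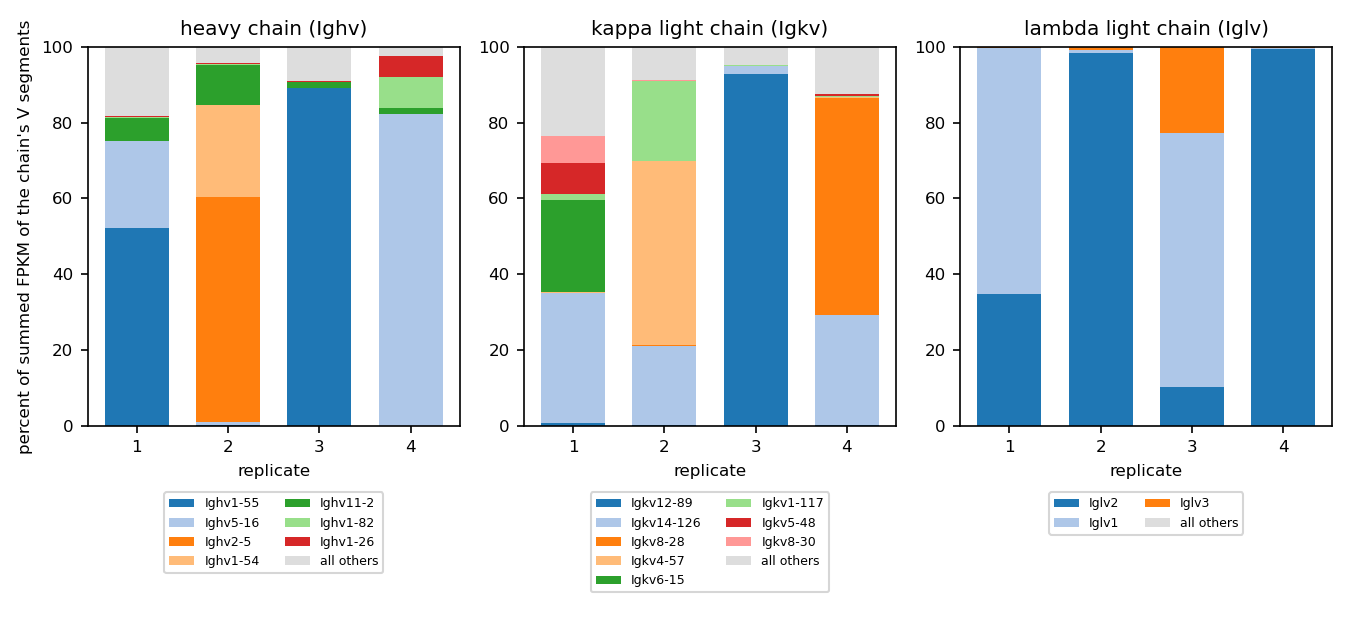
Stacked bars give the percent of the summed FPKM of Ighv, Igkv and Iglv segments held by each segment that reached 5% in a library, for replicates 1 to 4, with all other segments in grey. A different segment or set of segments fills each bar: Ighv1-55 fills 89.2% of replicate 3 and Ighv5-16 82.3% of replicate 4.

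Light chains differed in the same manner. In replicate 3, Igkv12-89 had 18316 FPKM, 92.8% of the kappa variable total, and the lambda segments together had 240 FPKM. In replicate 1 the lambda segments summed to 22981 FPKM, with Iglv1 at 14936 FPKM and Iglv2 at 7990 FPKM, against 4942 FPKM for kappa. Replicate 4 was led by Iglv2 at 11638 FPKM, beside 2325 FPKM of Igkv8-28. Replicate 2 was mixed, with 5396 FPKM of Iglv2 and 4482 FPKM of Igkv4-57. Igkv14-126 was among the first 3 kappa segments of every library, with 1699, 1942, 422 and 1186 FPKM in replicates 1 to 4.

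The kappa share had the same order of libraries in the constant regions and in the variable segments. Igkc, the kappa constant region, was 17.97%, 55.9%, 85.5% and 21.0% of light chain constant FPKM in replicates 1 to 4, while kappa was 17.7%, 62.7%, 98.8% and 25.7% of light chain variable FPKM. Within the lambda constants, Iglc1 held 89.3% in replicate 4 and 58.5% in replicate 1, and Iglc2 held 82.4% in replicate 2. Iglv2 was the leading lambda segment of both replicates 2 and 4, while their leading lambda constants differed. Iglc2 and Iglc3 are near-identical genes in textbook accounts, and their split is uncertain.

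In contrast to the light chains, 1 heavy chain class was shared. Ighm, the IgM constant region (ENSMUSG00000076617, chromosome 12), had 10810, 8124, 12558 and 12262 FPKM in replicates 1 to 4, with a mean of 10938 FPKM. It held 97.9% ± 0.572 (SD, n = 4) of heavy chain constant FPKM. Ighd, which IgM+ B cells can express by alternative splicing, held 0.517% to 1.53%. The switched classes IgG, IgA and IgE together held 0.672% to 1.30%. Among them Ighg3 was highest on average, with 61.4, 26.3, 41.6 and 116 FPKM, and Ighg2b was the most uneven, with 19.9, 14.2, 55.0 and 0.824 FPKM. Every library was thus led by IgM, whichever light chain led it.

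T cell receptor segments gave a comparison within the same libraries. The leading segment of the T cell receptor beta chain was Trbv13-2 in all 4, with 13.7%, 10.6%, 11.2% and 17.3% of 35 Trbv segments. The effective number of Trbv segments was 12.9 to 16.7, against 1.25 to 3.01 for Ighv. The alpha chain segments (Trav) were more even still, with effective numbers of 36.7 to 39.0. Trbv segments summed to 28.7 to 192 FPKM and Trav segments to 32.2 to 76.2 FPKM, so their shares rest on far fewer fragments than those of Ighv.

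The most abundant identifiers were mitochondrial, immunoglobulin and ribosomal protein transcripts. Between 119 and 136 identifiers held the leading 50% of summed FPKM in replicates 1 to 3, and 234 did in replicate 4. Of the 100 most abundant identifiers of each library, 61 were common to all 4 and 145 were in at least 1. The first places by mean went to mt-Ts1 (24626 FPKM) and mt-Atp8 (20853 FPKM), whose annotated transcripts have 69 and 204 bases and overlap mt-Co1 and mt-Atp6. The length correction can inflate the FPKM of such short transcripts.

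**Figure D2:**
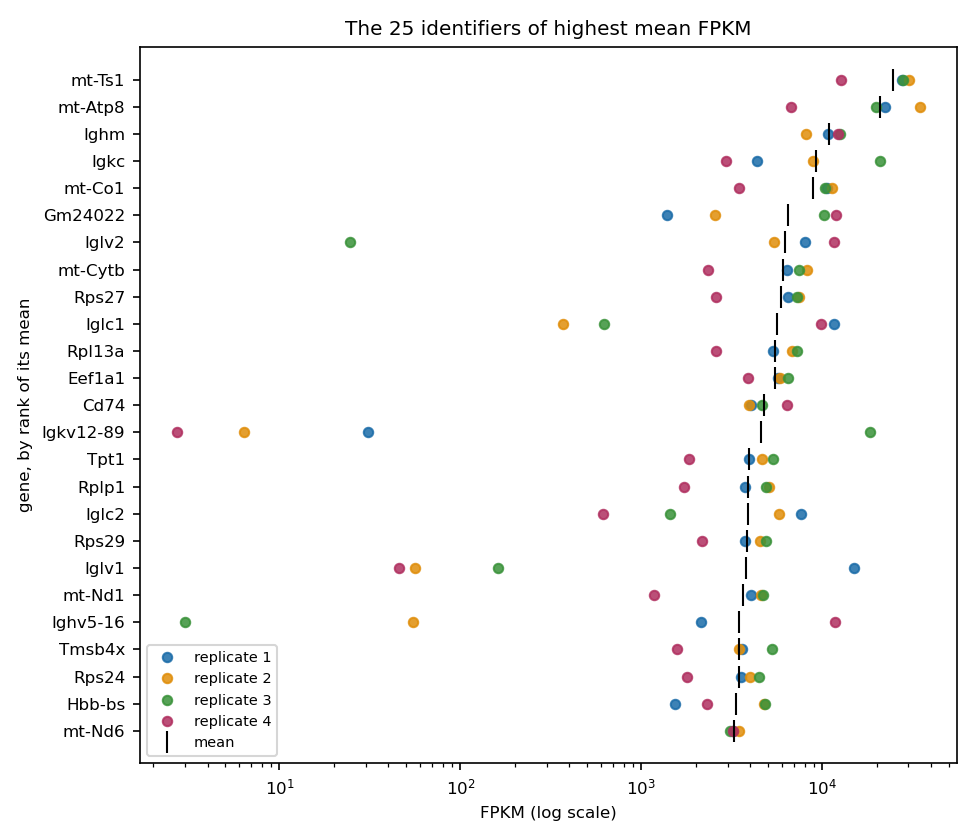
Each row is 1 of the 25 identifiers of highest mean, with FPKM on a log axis, a point for each of replicates 1 to 4 and a bar for the mean. Ighm lies between 8124 and 12558 FPKM in every library, while variable segments and lambda constants span over an order of magnitude between libraries.

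Among identifiers with transcripts of at least 300 bases, a ranking chosen after the values were seen, Ighm was first, followed by Igkc and the cytochrome oxidase subunit mt-Co1. The invariant chain Cd74, which escorts MHC class II, was the tenth with 4045, 3954, 4659 and 6385 FPKM in replicates 1 to 4. The translation factor Eef1a1 was the ninth with 5699, 5821, 6505 and 3912 FPKM, lowest in replicate 4. The adult globin Hbb-bs had 1527, 4752, 4806 and 2298 FPKM. The model Gm24022, a miRNA annotation of 70 bases near Ighm on chromosome 12, had 1386, 2560, 10196 and 11899 FPKM, high in replicates 3 and 4.

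By class, ribosomal protein genes held 19.6% ± 4.23 (SD, n = 4) of summed FPKM, mitochondrial genes 11.5% ± 3.19 and immunoglobulin genes 8.98% ± 2.10. Ribosomal protein genes held 19.8%, 22.8%, 22.2% and 13.5% in replicates 1 to 4. Mitochondrial genes held 12.7%, 15.1%, 10.9% and 7.47%. Replicate 4 was lowest for both classes. MHC genes with Cd74 and B2m held 1.88% to 2.43%, highest in replicate 4, and globins held 0.421% to 1.06%, lowest in replicate 1.

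The defining markers of B cells were high in every library. The level of a marker list was the mean of log2(FPKM + 1) over its members. B cell markers had the highest level, 7.64 ± 0.117 (SD, n = 4), and all 20 had a mean of at least 10 FPKM. Cd79a, a signalling subunit of the B cell receptor, had 1046, 909, 1121 and 1300 FPKM in replicates 1 to 4. Ms4a1, which encodes CD20, had 578, 609, 676 and 297 FPKM, with replicate 4 below the others. In replicate 4, 12 of the 20 members were at their highest, against 29.1% of all identifiers with a mean of at least 1 FPKM. The level spanned 0.274 between libraries as deposited, but 0.686 when each library was rescaled to a sum of 1000000, and 0.660 when immunoglobulin and mitochondrial genes were left out of that sum.

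In bulk RNA, fewer cells of a type and less RNA per cell cannot be told apart, so the levels below are not cell counts. T cell markers had levels of 4.77, 3.74, 3.996 and 3.32 in replicates 1 to 4. In replicate 1, 20 of the 21 T cell markers were at their highest, against 25% of all identifiers. In replicate 4, 16 were at their lowest, against 46.7% of all identifiers. Cd3e, a subunit of the T cell receptor complex, had 33.9, 15.5, 14.3 and 16.7 FPKM. NK and cytotoxic markers had levels of 4.23, 2.895, 4.196 and 2.44, high in replicates 1 and 3. Gzma, a cytotoxic granule protease, had 47.2, 10.4, 63.6 and 3.85 FPKM.

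Myeloid markers varied in other ways. Neutrophil markers had levels of 3.11, 1.47, 2.12 and 2.40, highest in replicate 1, where S100a8 and S100a9, subunits of calprotectin, had 149 and 218 FPKM. In replicate 2 they had 21.8 and 30.6 FPKM. Monocyte and macrophage markers had levels of 3.54, 3.91, 3.64 and 2.96. The complement genes C1qa, C1qb and C1qc, typical of tissue macrophages, had 49.1 to 56.2 FPKM in replicate 2 and 14.9 to 23.7 FPKM in the other 3.

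Erythroid markers had levels of 4.99, 5.73, 5.49 and 5.68, lowest in replicate 1, where 14 of 18 members were at their lowest, against 13.6% of all identifiers. Alas2, the erythroid enzyme that starts heme synthesis, had 42.7, 138, 103 and 95.6 FPKM. Plasma cell genes had levels of 5.51, 5.01, 5.61 and 5.98. Jchain, which joins IgM pentamers, had 395, 136, 735 and 633 FPKM, lowest in replicate 2, and Mzb1, a chaperone of IgM assembly, had 531 to 723 FPKM. Of the 12 plasma cell genes, 9 had a mean of at least 10 FPKM. The plasma cell receptor gene Tnfrsf17 was not abundant, as given below. Whether the plasma cell level came from plasma cells or from the leukaemic B cells was not tested. Stromal and endothelial markers stayed at a level of 0.701 ± 0.0780 (SD, n = 4), and of 15 members only Pecam1 and Stab2 had a mean of at least 1 FPKM.

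**Figure D3:**
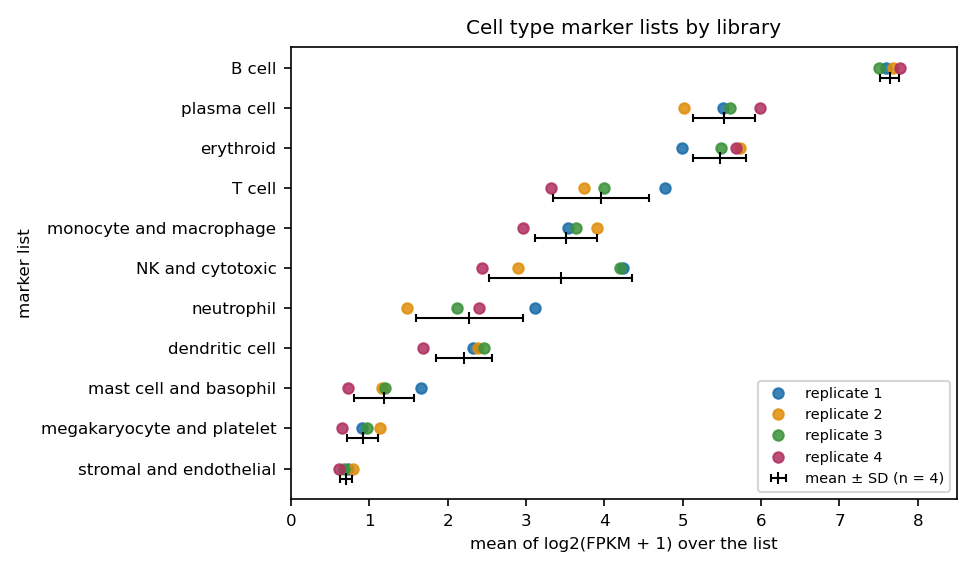
Points give the level of each marker list, the mean of log2(FPKM + 1) over its members, in replicates 1 to 4, with the mean ± SD below. The B cell list lies between 7.50 and 7.78, and the NK and cytotoxic list spans 2.44 to 4.23.

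Genes of B-1 cells and of chronic lymphocytic leukaemia were present in every library. Cd5, the surface marker of these cells, had 26.6, 45.9, 31.2 and 16.1 FPKM in replicates 1 to 4, highest in replicate 2. T cells also express Cd5, and the T cell list had the levels 4.77, 3.74, 3.996 and 3.32 given above; its part in the Cd5 values was not tested. Plac8, the most abundant member of the list, had 1201, 1643, 1649 and 623 FPKM. Bhlhe41, a transcription factor of B-1a cells, had 48.4 to 57.6 FPKM as deposited. Ctla4, an inhibitory receptor, had 30.03, 7.34, 41.4 and 10.8 FPKM, and Ror1, a receptor found on human leukaemic cells, did not exceed 0.0190 FPKM. The part of T cells in the Ctla4 values was likewise not tested. Genes of follicular and marginal zone B cells were present as well. Their list had a level of 4.70 ± 0.173 (SD, n = 4), against 5.26 ± 0.230 for the B-1 and leukaemia list. A mean of at least 10 FPKM was reached by 10 of 13 and 14 of 16 members. Of germinal centre genes, no member reached a mean of 10 FPKM.

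The mouse gene Tcl1 was listed at 0 in all 4 libraries, and the human transgene has no identifier among those analysed. Myc, a growth regulator, had 100, 84.7, 91.9 and 176 FPKM, with replicate 4 above the others. Il10, a cytokine made by B-1 cells, had 12.1, 6.24, 25.9 and 9.59 FPKM. Kdm1a, the demethylase targeted by the inducible knockdown of the other group, had 24.2, 21.2, 24.1 and 31.1 FPKM here. Mki67, a marker of cycling cells, had 44.1, 51.2, 46.0 and 82.3 FPKM. The mitosis list had levels of 4.002, 4.24, 4.09 and 4.12.

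Among the guardians of the BCL2 family, Mcl1 was the most abundant by far. Mcl1 (ENSMUSG00000038612, chromosome 3) had 469, 422, 457 and 277 FPKM in replicates 1 to 4, a mean of 406 ± 88.3 (SD, n = 4). Bcl2 (ENSMUSG00000057329, chromosome 1) had 25.4, 21.0, 23.8 and 32.9 FPKM, a mean of 25.8 ± 5.09. Mcl1 was 8.43 to 20.1 times Bcl2 within a library, with the lowest ratio in replicate 4, where Mcl1 was at its lowest and Bcl2 at its highest.

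The order below Mcl1 was Bcl2a1b, Bcl2, Bcl2a1d, Bcl2l1, Bcl2l2 and Bcl2a1a. Bcl2a1b had 36.7, 31.9, 65.5 and 16.8 FPKM, and its range overlapped that of Bcl2. Bcl2l1, which encodes BCL-XL, had 9.31, 14.4, 8.70 and 14.1 FPKM and was not separated from Bcl2a1d. Bcl2a1a, Bcl2a1b and Bcl2a1d are near-identical copies, so their split is uncertain. The other neighbours in the order did not overlap.

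Both effectors were expressed. Bax had 63.4, 73.6, 85.8 and 87.5 FPKM and Bak1 33.6, 44.1, 36.3 and 23.1 FPKM, without overlap, and Bok did not exceed 0.389 FPKM. Of the BH3-only members, which start apoptosis by binding guardians or effectors, Bid led with 44.1 to 57.6 FPKM. Bcl2l11, which encodes BIM, had 16.8, 11.9, 17.1 and 18.9 FPKM, and its range overlapped that of Bad. The p53 targets Bbc3 (PUMA) and Pmaip1 (NOXA) had 6.504 to 9.31 and 1.52 to 6.03 FPKM. Hrk was listed at 0 in every library.

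**Figure D4:**
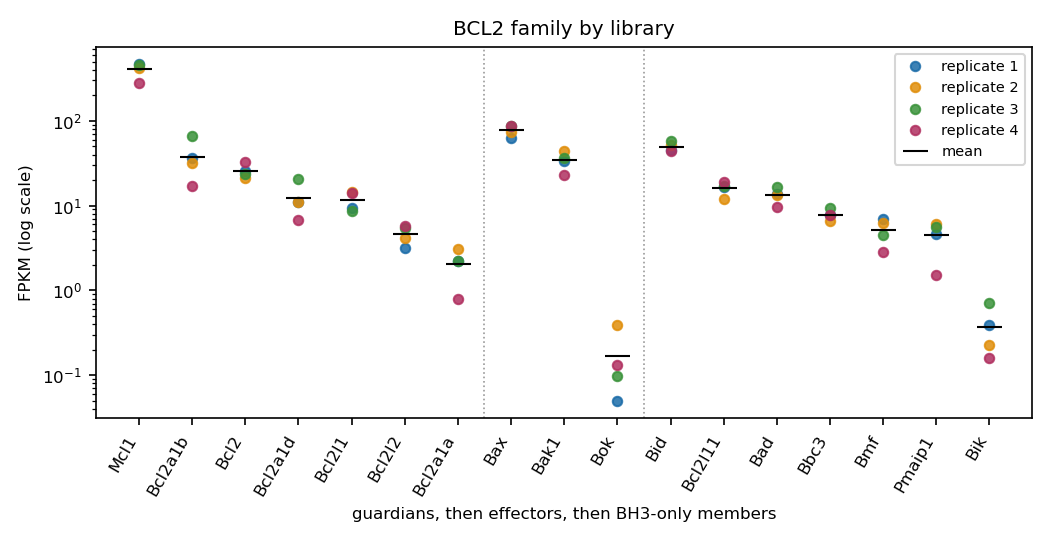
Points give the FPKM of BCL2 family members on a log axis in replicates 1 to 4, with a bar for the mean, ordered as guardians, effectors and BH3-only members. Mcl1 lies between 277 and 469 FPKM, above every other member in every library; Hrk, listed at 0, is left out.

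Other survival lists lay below, near or above genes at large in their spread. The median SD of log2(FPKM + 1) was 0.20 over the inhibitors of apoptosis and 0.31 over the p53 pathway. It was 0.33 over death receptors and caspases, 0.25 over B cell receptor signalling and 0.57 over BAFF, APRIL and CD40 genes. Over all identifiers with a mean of at least 1 FPKM it was 0.31. The 6 inhibitors of apoptosis all had a mean of at least 10 FPKM, and their list level was 5.14 ± 0.0496 (SD, n = 4) as deposited. That level spanned 0.119 between libraries, and 0.424 after rescaling to a sum of 1000000. Birc3 had the highest mean, with 67.3, 42.0, 70.2 and 43.9 FPKM, but was above Birc6 in only 2 of the 4 libraries. The tumour suppressor Trp53 had 78.3, 86.2, 85.3 and 120 FPKM, and its target Cdkn1a, a cell cycle inhibitor, had 2.91 to 4.56 FPKM. Mdm4, which restrains p53, had 92.3, 88.0, 84.9 and 145 FPKM, with replicate 4 above the others. Of the 12939 identifiers with a mean of at least 1 FPKM, 4.16% had an SD of log2(FPKM + 1) of at least 1 over the 4 libraries. Of the 37 guardians, effectors, BH3-only members, inhibitors of apoptosis, death receptors, caspases and p53 pathway members with such a mean, 0 did, which is near that share for so few members.

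Of the receptor genes for the survival factors BAFF and APRIL, Tnfrsf13b and Tnfrsf13c were abundant, while Tnfrsf17 and the ligand genes were not. Tnfrsf13b (TACI) had 178, 197, 195 and 140 FPKM and Tnfrsf13c (the BAFF receptor) had 94.2, 219, 173 and 91.7 FPKM, with overlapping ranges. The ligand gene Tnfsf13b (BAFF) had 0.388, 0.262, 0.333 and 1.30 FPKM, and Tnfsf13 (APRIL) had 0.380 to 1.36 FPKM. The plasma cell receptor Tnfrsf17 (BCMA) had 1.91 to 5.27 FPKM. B cell receptor signalling genes had a list level of 6.28 ± 0.0318 (SD, n = 4) as deposited, a span of 0.0764 between libraries that became 0.340 after rescaling to a sum of 1000000. The kinase Syk had 287, 225, 290 and 241 FPKM and the kinase Btk had 58.8, 64.5, 65.9 and 46.8 FPKM. The delta subunit Pik3cd, the target of idelalisib, had 80.1 to 87.7 FPKM as deposited, and 124 ± 19.3 (SD, n = 4) after that rescaling.

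Across all 12939 identifiers the median SD of log2(FPKM + 1) was 0.31, and 538 had an SD of at least 1. Of these, 261 had transcripts under 300 bases. The median SD was 0.89 over 175 immunoglobulin identifiers, 0.55 over 82 ribosomal protein genes and 0.35 over the 20 B cell markers. With immunoglobulin and T cell receptor segments and predicted gene models left out, and a mean of at least 5 FPKM, the 20 identifiers of largest SD were transfer RNAs of the mitochondrion and other short RNAs with exact zeros, and Ly6k was the only one with a transcript of at least 300 bases. Ly6k, a surface protein of the Ly6 family, had 44.0, 0.580, 369 and 0.833 FPKM, high in replicates 1 and 3. Under the same limits the 5 genes of smallest SD as deposited were Taf8, Pmvk, Cops7b, Snx19 and Ccdc50. Taf8, a subunit of the transcription factor TFIID, had 15.7 to 15.96 FPKM. The factors that bring each library to a sum of 1000000 ran from 1.31 to 1.75, so genes even as deposited are not even after that rescaling.

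Some genes set a single library apart. With the same exclusions, 40 genes were named by their gap to the nearest other library, and 25 of them were short RNAs. The genes below come from a ranking limited to transcripts of at least 300 bases, chosen after the values were seen. In replicate 1, Xist, the RNA of the inactive X chromosome, had 110 FPKM against at most 0.128 in the other 3. The Y-linked genes Eif2s3y and Kdm5d did not exceed 0.0506 FPKM in replicate 1 and had at least 5.52 FPKM elsewhere. In replicate 2, Plk2, a stress-induced kinase, had 29.6 FPKM against 0.941 to 4.43. In replicate 3 the B cell marker Cd72 had 52.8 FPKM against 144 to 173. In replicate 4, Firre, a long noncoding RNA of the X chromosome, had 40.0 FPKM against 0.903 to 1.67, and the inflammatory protease Casp1 had 3.95 FPKM against 21.6 to 43.6. Phf3 in replicate 1, Slc25a51 in replicate 2 and Snapc4 in replicate 4 were listed at 0 against at least 16.3 FPKM elsewhere.

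Replicate 4 was the farthest of the 4 libraries from their median for 54.4% of the 12939 identifiers, against 14.7% to 15.9% for each other library. Among the 538 with an SD of at least 1 its share was smaller, 201 or 37.4%. Across these identifiers, which are not independent replicates, Pearson's r of log2(FPKM + 1) was 0.936 to 0.941 among replicates 1 to 3 and 0.885 to 0.903 with replicate 4. Polr2a, the large subunit of RNA polymerase II, had 43.2, 49.3, 31.2 and 143 FPKM, highest in replicate 4.

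The offset of replicate 4 moved with transcript length and GC content. Among transcripts of at least 300 bases its median log2 difference from the median of the other 3 was −0.15. With genes split into 5 equal bins by length it ran from −0.35 in the shortest to 0.01 in the longest, and by bins of GC content from −0.35 in the lowest to 0.09 in the highest. The other libraries stayed between −0.10 and 0.19 in every bin, but their offsets also moved with both properties. By length, replicate 3 fell from 0.19 in the shortest to −0.10 in the longest. By GC content, replicate 1 fell from 0.17 in the lowest to −0.08 in the highest, and replicate 2 rose from −0.09 to 0.09. The part of length and GC content in the values of single genes of replicate 4, such as the low ribosomal protein and Mcl1 values and the high Myc value, was not tested. Without replicate 4 the median SD over all genes was 0.19.

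**Figure D5:**
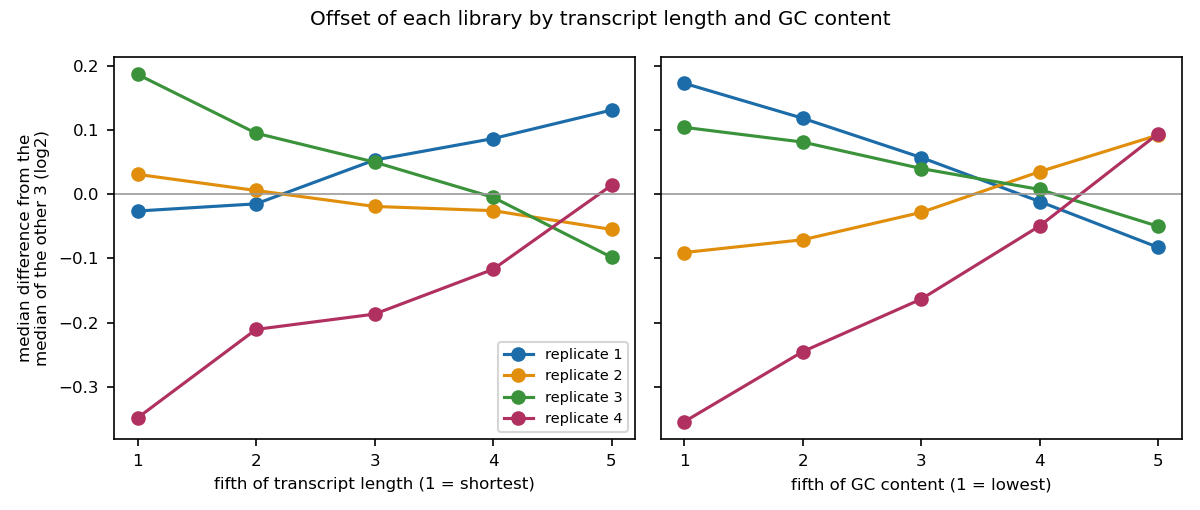
Lines give, for replicates 1 to 4, the median log2 difference of a library from the median of the other 3, by 5 bins of transcript length (left) and of GC content (right), for transcripts of at least 300 bases. Replicate 4 rises from −0.35 in the first bin to 0.01 and 0.09 in the last.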

How the data were processed

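Per the labels' protocols, the mononuclear cell fraction of the spleen gave polyadenylated RNA, which was sequenced on a NovaSeq instrument. The authors deposited 1 table of FPKM values, and no counts were used. CASAVA and Cufflinks are named, with no version, in the submitters' processing notes; for the aligner, the genome build, the annotation and strand the answer is "not given in the sources used here". Identifiers were matched to GENCODE M21 (GRCm38), which named 53951 of 54018, and 27205 were at 0 in all 4 libraries. Of 409 list symbols 6 had no match. Only the 4 Eµ-TCL1A libraries entered, as 1 group, so no comparison between groups was tested; libraries lying apart were found with Dixon's critical value. Spread is the SD of log2(FPKM + 1) for identifiers with a mean of at least 1 FPKM, computed with Python 3.11.15, pandas 2.3.3 and numpy 2.4.6 and tested on simulated data. The libraries and the lists were chosen with earlier results of these data known.

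Genes were named by rule: all survival genes, single genes of interest and constant regions were candidates; then the 25 of highest mean, the 3 leading segments per chain, 2 to 4 leading members of each other list, the 20 largest and 5 smallest SDs at a mean of at least 5 FPKM, and the 5 genes farthest above and below in each library, the SDs and gaps without immunoglobulin and T cell receptor segments and predicted gene models. Members of other lists outside that rule (Ms4a1, Cd3e, Alas2, the C1q genes, Bhlhe41, Ror1, Polr2a and Ighv12-3) were chosen after their values were seen. Some genes are not reported here. Alternatives changed the pseudocount, filter, scaling and libraries.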

Additional observations from a re-analysis of the deposited data

Results flagged for a closer look

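In 11 of 152 measures and genes examined, 1 of the 4 libraries lay apart from the others by more than Dixon's critical value for 4 samples (gap to the nearest library as a share of the range). Chance flags about 1 in 20 such groups if they are independent. These items are not, as several genes of 1 class were examined, so the number flagged is not read as above chance. Replicate 4 was that library in 8, and it was the farthest library from the median for 54.4% of all 12939 identifiers. It was highest for the number of identifiers that hold the leading 50% of FPKM (0.852) and for Mdm4 (0.843). It was lowest for Ccng1, a p53 target (0.965), Tnfsf13 (0.891), mt-Ts1 (0.891), mt-Co1 (0.923), Rps27 (0.876) and mt-Nd1 (0.883). Replicate 2 was lowest for Pik3cd (0.837). Replicate 3 was lowest for Notch1, a receptor mutated in human chronic lymphocytic leukaemia (0.870), and for Iglv2 (0.874).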

How the results depend on the processing

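No paired analysis was possible because 1 group is described and no groups were compared. Leaving out each library in turn gave 125 to 164 identifiers for the leading 50% of FPKM, immunoglobulin, mitochondrial and ribosomal protein shares of 8.36% to 9.90%, 10.3% to 12.9% and 18.5% to 21.6%, B cell, T cell and erythroid levels of 7.59 to 7.68, 3.69 to 4.17 and 5.39 to 5.63, a leading Ighv share of 64.6% to 77.0%, an Ighm share of 97.7% to 98.2%, a kappa share of 31.6% to 54.1%, and means of 385 to 449 FPKM for Mcl1 and 23.4 to 27.4 FPKM for Bcl2. The median SD was 0.19 to 0.33, and identifiers with an SD of at least 1 numbered 406 to 595. With a library other than replicate 4 left out, replicate 4 was farthest in 245 to 294 of those, and for 55.4% to 60.3% of all identifiers. These values cannot be set against those from all 4 libraries, because the median of the libraries left is itself 1 of them.

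Without immunoglobulin and mitochondrial genes, 324.5 identifiers on average held the leading 50%. With transcripts of at least 300 bases only, added after seeing the data, the mitochondrial share was 4.497%, 276 genes had an SD of at least 1 and replicate 4 was farthest in 119 of them. Rescaling to 1000000 without immunoglobulin and mitochondrial genes gave B cell, T cell and erythroid levels of 8.497, 4.74 and 6.30, and replicate 4 was farthest for 49.4% of genes; log2 of the summed FPKM gave 12.7, 8.94 and 12.5. Rescaling each library to 1000000 put Mcl1 at 579.9 and Bcl2 at 38.3. A pseudocount of 5 gave a median SD of 0.21, 199 identifiers with an SD of at least 1 and 74 with replicate 4 farthest, and a pseudocount of 0.1 gave 896 and 386. With at least 1 FPKM in all 4 libraries these counts were 185 and 93. With a mean of at least 5 FPKM they were 309 and 129, and replicate 4 was farthest for 58.6% of genes. All identifiers above 0 gave a median SD of 0.17. The erythroid level was highest in replicate 2 as deposited and in replicate 4 under the 3 other scalings. Depth limits the precision of values near that of 1 fragment. The cause of these differences was not tested.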

Other observations

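Stress and interferon genes have not been described above. Heat shock genes had list levels of 6.11, 6.70, 6.83 and 6.64 in replicates 1 to 4, lowest in replicate 1, and the inducible chaperone Hspa1b had 2.11, 13.6, 6.21 and 12.2 FPKM. Of the immediate early genes, which respond within minutes to stimulation and to tissue handling, Fos had 37.2, 78.2, 44.3 and 10.3 FPKM, while Jund had 63.3 to 67.3 FPKM. Type I interferon response genes were low, with levels of 2.56 to 3.09, and 6 of 16 had a mean of at least 10 FPKM. Unfolded protein response genes were abundant, with a level of 6.95 ± 0.127 (SD, n = 4).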
